A study of Mus musculus with 59 samples.

Results

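Vehicle-treated mouse liver was compared with vehicle-treated bone marrow and spleen as 1 joint reference of 2 tissues. The livers are the 7 arrays whose titles name liver and vehicle, of 59 arrays in the series. They were set against 14 vehicle arrays, 8 of bone marrow and 6 of spleen, out of 16 that the titles name. Of the spleens, 5-dose replicates 1 and 3 were left out because they carried liver transcripts. The series gave B6C3F1 mice the GABA-B agonist baclofen or its vehicle, and every group used here received the vehicle, 0.5% methylcellulose, with no drug. Mice had 5 daily doses (4 livers, 4 marrows, 2 spleens used) or 1 dose (3 livers, 4 marrows, 4 spleens), and tissue was taken 2 h after the last dose, following cervical dislocation. The liver sample was a piece of the left lateral lobe, the marrow came from the right humerus, and the spleen sample was part of a cross-section. The labels used here do not give sex, age, or whether equal replicate numbers mark 1 animal, so p-values reflect nothing beyond the spread among these arrays, which may be technical.

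The liver is built mostly of hepatocytes, which secrete the bulk of the plasma proteins and carry out urea synthesis, glucose release, bile acid synthesis and the oxidation and conjugation of foreign compounds. Its minority cells are resident macrophages called Kupffer cells, sinusoidal endothelium, stellate cells and bile duct cells. Bone marrow makes red cells, platelets and most white cells, and the mouse spleen adds lymphoid tissue to residual red cell formation. Marrow and spleen therefore serve here as blood-forming tissues against which the transcripts of a metabolic organ stand out.

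Defining markers matched the tissue names. The 7 measured hepatocyte markers averaged 8.00 to 8.08 log2 units above the array median in the livers, against -1.99 to -1.39 in the marrows and -2.16 to -1.05 in the spleens. The highest values of each blood tissue came from bone marrow 5-dose replicate 3 (-1.39) and spleen 5-dose replicate 4 (-1.05). The left-out spleens stood at -0.26 and 2.08. In replicate 1 of these 28.54%, and in replicate 3 47.24%, of the liver-high genes described below exceeded all 6 spleens used. The median excess of those genes over the mean of the 6 was small, at 0.03 and 0.19 log2 units. The share over all genes was not counted. Mature neutrophil markers averaged -1.55 to -1.09 in livers, against 6.66 to 6.78 in marrows and 2.72 to 4.37 in spleens. For 5 of the 7 1-dose livers of the series, 2 of the 3 vehicle livers among them, the title and the source label disagree on treatment. The titles were followed.

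Intensity on these arrays cannot be read across tissues without a choice of scale. The median deposited intensity was 35 to 36.8 in liver arrays, against 72.6 to 76.0 in marrow and 74.3 to 76.3 in spleen arrays, so the tissues look normalized apart. Values below are log2 intensity minus the median of the same array over 18193 genes. A gene was called when its adjusted p was under 0.05 and liver lay at least 8-fold (3 log2 units) to the same side of marrow and of spleen. Percentile ranks within an array are given beside levels, since they need no common scale. Across genes, which are not independent replicates, liver arrays correlated with the other tissues at 0.658 to 0.689, marrow with spleen at 0.92 to 0.955, and arrays of 1 tissue with each other at 0.979 to 0.997.

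In liver 834 genes were called higher and 510 lower (limma, Benjamini-Hochberg adjusted over 18193 genes). These are 4.58% and 2.8% of the genes tested. In each of these genes the 7 livers did not overlap with the 14 other arrays, in level or in percentile rank. Genes chosen for an 8-fold difference are nearly bound to show this, and of all 18193 genes 7224 lay wholly above and 3616 wholly below in liver. The liver-high genes had a median rank at the 94.4th percentile in liver, against the 30.4th in marrow and the 29.6th in spleen. The liver-low genes had a median rank at the 25.8th percentile in liver, against the 90.2nd in marrow and the 87.9th in spleen. The median difference was 5.14 log2 units among the liver-high and -4.35 among the liver-low genes, and 38 liver-high genes were at least 10 units above both tissues. Whether a tissue holds fewer cells of a type or less RNA per cell cannot be told apart in such bulk samples.

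The split between higher and lower depends on the scale. With the deposited values uncentred it was 560 higher and 1027 lower, with percentile ranks (at least 30 points) 875 and 907, and centred on ribosomal protein and proteasome genes 651 and 810. The median difference over all genes was 0.34 on the scale used here, -0.66 uncentred and -0.25 on the ribosomal and proteasome scale, and the differences of single genes shift with it. None of the 1344 called genes changed sign on any of these scales or after quantile normalization, and 529 liver-high and 497 liver-low genes were called on all 5. By adjusted p alone 10535 genes were higher and 5909 lower, 57.9% and 32.5% of those tested, so that the p-value by itself separates little.

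**Figure D1:**
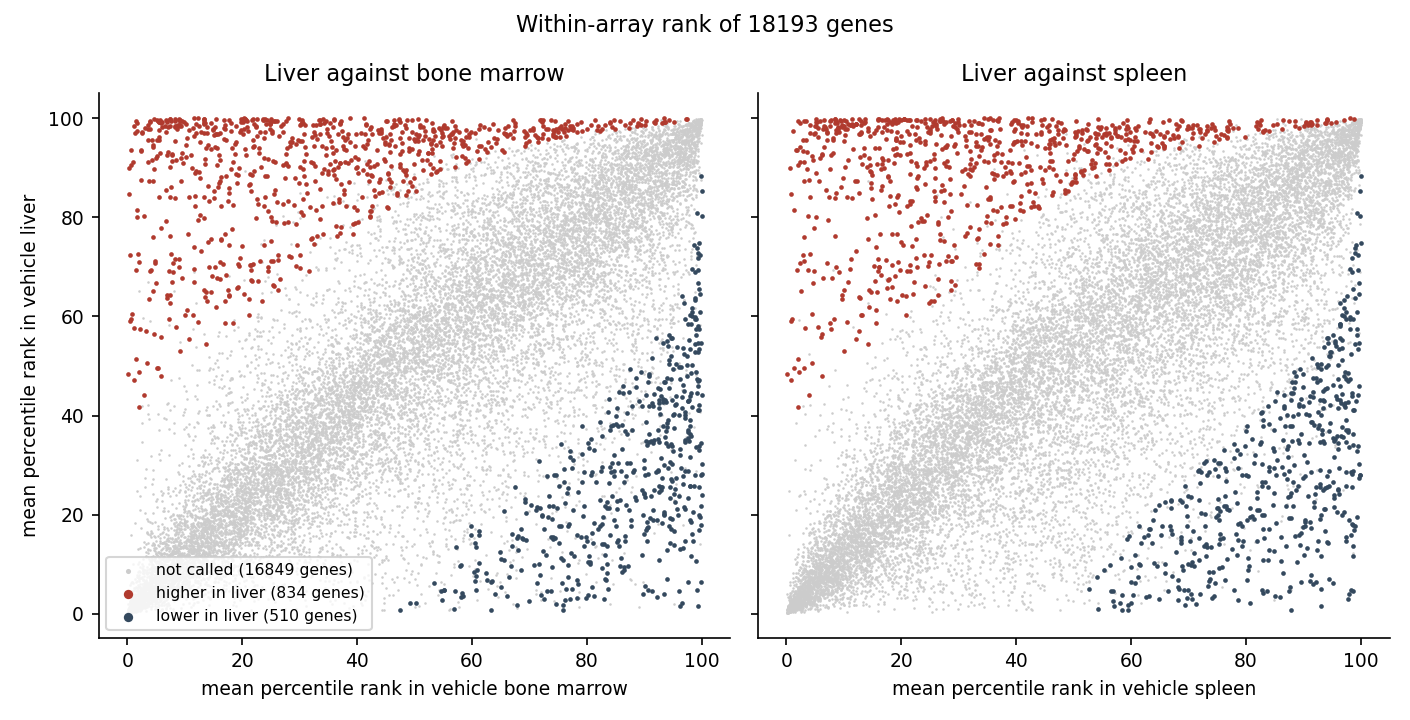
Mean percentile rank of each gene within its arrays, liver (vertical axis) against bone marrow and against spleen (horizontal axes). The 834 liver-high genes lie above the diagonal and the 510 liver-low genes below it, and most other genes lie near it. Of the liver-high genes 591 rank under the 50th percentile in both marrow and spleen. Of the liver-low genes 449 rank under the 50th percentile in liver.

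The brightest transcripts of liver were mostly its own. Of the 100 brightest genes in liver, 77 were called higher and 0 lower. Of the 100 brightest in marrow 30, and of the 100 brightest in spleen 18, were called lower in liver, and 0 higher. The counts of 0 carry little information. No deposited value exceeded 43115, so genes this bright left little room for a level 8-fold higher in another tissue. Liver shared 14 of its 100 brightest genes with marrow and 12 with spleen, whereas marrow and spleen shared 71.

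The gene measured furthest above both tissues was Fga, which encodes the alpha chain of fibrinogen, the clotting protein of plasma (NCBI Gene 14161, GRCm38.p6 chromosome 3, 83026153 to 83033627). Its level was 8.38 at the lowest, 8.48 at the median and 8.59 at the highest of the 7 livers. In the marrows it was -3.68, -3.47 and -2.73, and in the spleens -3.75, -3.51 and -2.08. Livers were tightly grouped and lay over 10 units above the highest other array. The difference was 11.75 ± 0.12 (SE), with a limma adjusted p of 8.96e-26. Background correction sets a floor under dim values, so the size and the order of the largest differences depend on it. The chains encoded by Fgb (11.08 ± 0.09) and Fgg (11.12 ± 0.11) were close behind.

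Albumin, the main plasma protein, varied more among marrows and spleens. Alb (NCBI Gene 11657, chromosome 5, 90460870 to 90476602) had levels from 9.0 over 9.03 to 9.07 in the livers. The marrows ran from -2.24 over -1.99 to 0.21 and the spleens from -2.28 over -1.87 to 1.04. The highest marrow was 5-dose replicate 3 and the highest spleen 5-dose replicate 4, the arrays with the highest hepatocyte marker means, and the part of those markers in the difference was not tested. The difference was 10.39 ± 0.26 (limma adjusted p = 3.48e-19), and its SE is more than double that of Fga.

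**Figure D2:**
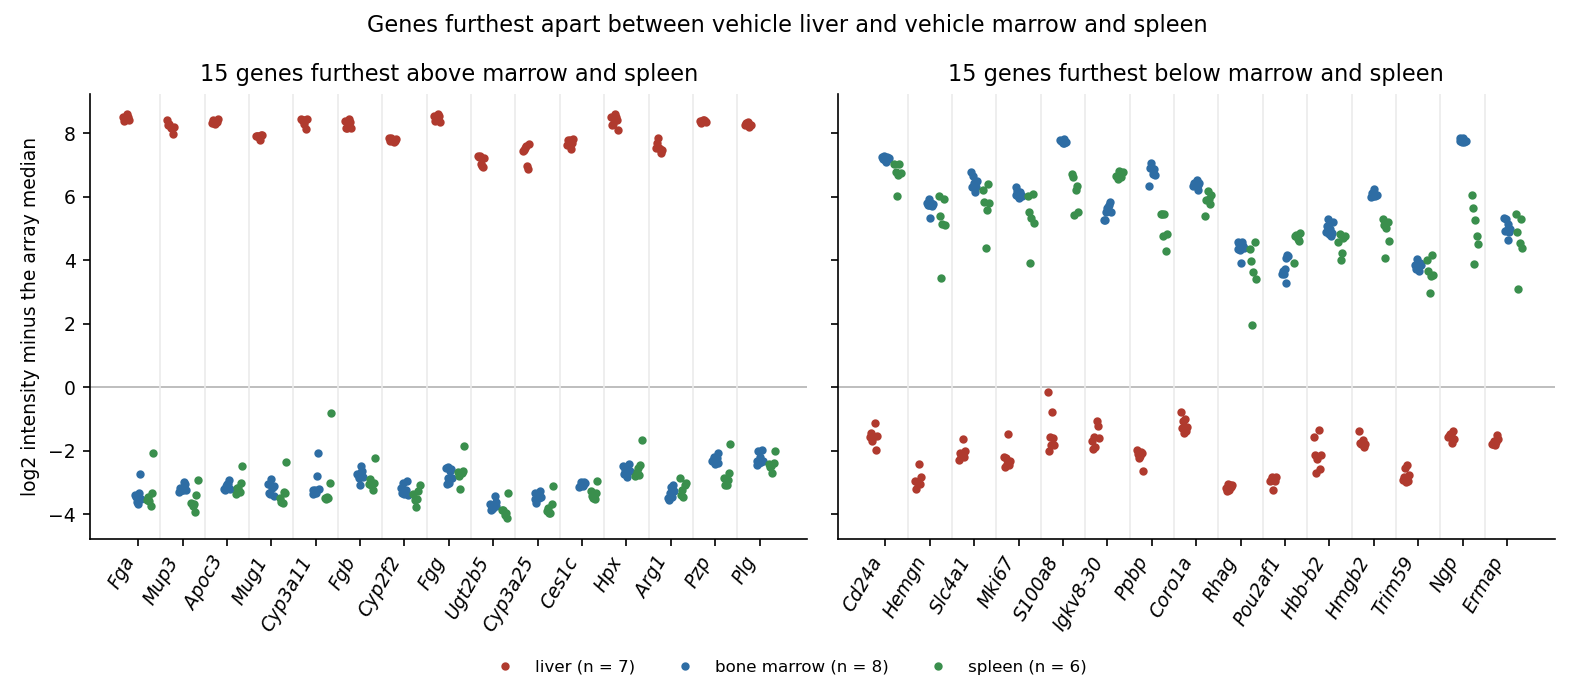
Level of the 15 genes furthest above and the 15 furthest below both tissues, as log2 intensity minus the array median, 1 point per array. Livers (left of each gene) sit between 6.88 and 8.61 in the first panel, against at most -0.83 elsewhere, and between -3.26 and -0.16 in the second, against at least 1.96.

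The other genes at the top came from a few hepatocyte functions. Apoc3, an inhibitor of triglyceride clearance carried on lipoproteins, was 11.41 ± 0.06 higher in liver. Mup3, a major urinary protein that carries pheromones, was 11.54 ± 0.06 higher, and the protease inhibitors of plasma Mug1 and Pzp were 11.09 ± 0.10 and 10.82 ± 0.09 higher. Another Mup3 probe set lay 2.59 above marrow and 2.75 above spleen, short of 8-fold. Hpx, the haem-binding plasma protein hemopexin, and Plg, the precursor of the clot-dissolving protease plasmin, were 10.88 ± 0.09 and 10.59 ± 0.07 higher. Arg1, the arginase that releases urea, was at 7.39, 7.53 and 7.86 (lowest, median, highest) in livers, against -3.54, -3.39 and -3.10 in marrows and -3.47, -3.15 and -2.88 in spleens. Enzymes of foreign-compound metabolism made up the rest: the cytochromes Cyp3a11 (11.27 ± 0.20), Cyp2f2 (11.08 ± 0.07) and Cyp3a25 (10.93 ± 0.10), the glucuronosyltransferase Ugt2b5 (10.93 ± 0.08) and the carboxylesterase Ces1c (10.88 ± 0.06). Mup, Ugt2b, Serpina1 and several Cyp genes have near-identical family members, and their probes may share signal between them.

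Secreted proteins filled 4 of the gene lists. The lists hold 974 genes, of which 867 have a value. Of 21 plasma carrier proteins 19 were called higher (median difference 9.32, against 0.34 over all genes tested), among them the serum protein genes Itih4 (10.46 ± 0.09), Serpina1b (10.45 ± 0.17) and Ahsg (10.36 ± 0.08). Of 27 coagulation and fibrinolysis genes 20 were higher (median 8.30), including the adhesive protein gene Vtn (10.36 ± 0.09). Of 24 apolipoprotein and lipoprotein genes 18 were higher (median 7.10), with Apof at 10.37 ± 0.08, Apob, the structural protein of very-low-density lipoprotein, at 10.07 ± 0.07, and Apoa1, that of high-density lipoprotein, at 9.73 ± 0.08.

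One clotting gene went the other way. F13a1 encodes the catalytic subunit of the fibrin-crosslinking factor XIII and is known from platelets and monocytes (NCBI Gene 74145, chromosome 13, 36867178 to 37050244). Its level was -2.40, -2.39 and -1.96 in the livers, against 4.79, 5.21 and 5.39 in the marrows and 0.89, 1.94 and 3.70 in the spleens. Liver was lower than every other array, by 5.82 ± 0.20 log2 units against both tissues together (limma adjusted p = 1.15e-16).

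Most complement genes were higher in liver. Of 23 measured genes 15 were called higher and 0 lower (median 5.53). The late components that form the membrane pore were far above, C8a by 10.49 ± 0.07, C9 by 10.21 ± 0.07 and Hc, the gene of C5, by 9.69 ± 0.09, as was the mannose-binding lectin Mbl2 by 9.46 ± 0.06. The genes of the C1q subunits, known from macrophages, were not called, with differences of -1.31 for C1qa, -0.70 for C1qb and -0.80 for C1qc. Properdin (Cfp, -2.02) and the C5a receptor (C5ar1, -1.90) were not called either.

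Amino acid, glucose and bile acid metabolism were high in liver as lists. Of 33 genes of the urea cycle and amino acid breakdown 31 were called higher (median 6.49), among them Otc (10.49 ± 0.07) and Cps1 (10.14 ± 0.08), which start the urea cycle, Mat1a (10.33 ± 0.07), which makes S-adenosylmethionine, and Hpd (10.26 ± 0.08) of tyrosine breakdown. Of 19 glucose and glycogen genes 13 were higher (median 4.67). Those furthest above were the transporter gene Slc2a2 (9.53 ± 0.10), the gluconeogenic enzyme genes Fbp1 (9.0 ± 0.12), Pck1 (8.74 ± 0.11) and G6pc (7.98 ± 0.08), and Gys2 (6.89 ± 0.15) of glycogen synthesis. Of 21 bile acid genes 17 were higher (median 6.28), with the uptake carriers Slc10a1 (9.68 ± 0.06) and Slco1b2 (9.4 ± 0.07), the hydroxylase Cyp7b1 (9.61 ± 0.12) and the canalicular export pump Abcb11 (8.29 ± 0.07). Some probe sets of Cyp7b1 (0.75 above marrow, 0.97 above spleen) and Slco1b2 (1.68 and 2.04, and 2.29 and 2.14) fell short of 8-fold. The other probe sets of these genes passed it.

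Enzymes acting on foreign compounds were mostly high in liver. Of 37 cytochrome P450 and reductase genes 27 were called higher (median 7.58), for example Cyp2d26 by 10.68 ± 0.06 and Cyp2d10 by 10.40 ± 0.06. The gene called lower, 1 of 2 on the other scales, was Cyp4f18, known as a neutrophil enzyme that inactivates leukotriene B4, which was lower by 5.09 ± 0.10 (limma adjusted p = 2.33e-21). Another of its probe sets, the one brightest in liver, showed no such difference (0.05). Of 46 conjugation and other xenobiotic enzymes 42 were higher (median 6.84), among them Ugt2b1 (10.37 ± 0.05) and the aldehyde oxidase Aox3 (10.04 ± 0.08).

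Fat oxidation genes were higher in part. Of 29 genes 17 were called higher (10 on the percentile scale), with a median of 3.73. Fabp1, the fatty acid binding protein of liver, was 10.97 ± 0.10 higher, the peroxisomal thiolase Acaa1b 10.11 ± 0.10, the glycolate oxidase Hao1 9.50 ± 0.07 and the fatty acid transporter Slc27a2 9.46 ± 0.09. The median rank of the list was at the 97.5th percentile in liver, against the 71.9th in marrow and the 66.5th in spleen, so that the typical member was bright in marrow and spleen too. Oxidative phosphorylation had 0 of 37 genes called in either direction. Its members were 1.02 to 2.74 log2 units higher in liver. Their median rank was at the 97.7th percentile in liver, against the 95.7th in marrow and the 94.9th in spleen. The list median was 1.66, but 0.65 uncentred and 0.73 after quantile normalization, where 4 of the 37 were negative. The median of the cytosolic ribosomal proteins was -0.14 over 31 genes and that of the proteasome 0.83 over 35, with 0 called in each. On the uncentred scale the ribosomal median was -1.15 and the proteasome median -0.18, and after quantile normalization the ribosomal median was -1.40.

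Hormones made in liver and the receptors it uses were partly shared. Of 26 genes of circulating hormones, growth factors and their binding proteins 18 were called higher (median 5.67). Hamp, the iron-regulating hormone hepcidin, was 9.99 ± 0.08 higher, Fgl1, a secreted fibrinogen-like protein, 9.55 ± 0.16, and Igfbp2, a binding protein of insulin-like growth factors, 8.42 ± 0.07. Of 23 hormone and other surface receptors 10 were higher and 0 lower (6 and 1 uncentred; median 2.96), among them Asgr1 (9.33 ± 0.08), a subunit of the asialoglycoprotein receptor, Ghr (6.64 ± 0.16) for growth hormone and Gcgr (4.93 ± 0.05) for glucagon. The insulin receptor gene Insr (1.80) and the glucocorticoid receptor gene Nr3c1 (0.26) were not called.

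Transcription factors separated the tissues in both directions. Of 29 hepatocyte factors 18 were called higher and 0 lower (median 4.26). Hnf4a, a nuclear receptor that drives many hepatocyte genes (NCBI Gene 15378, chromosome 2, 163506811 to 163572907), was at 6.37, 6.64 and 6.84 in livers, against -0.43, -0.33 and 0.00 in marrows and -1.44, -0.92 and -0.51 in spleens. That is 7.20 ± 0.10 higher in liver. Mlxipl, the glucose-responsive factor ChREBP, was 7.6 ± 0.10 higher, Foxa3 7.00 ± 0.10, the fatty acid receptor Ppara 6.75 ± 0.09 and the bile acid receptor Nr1h4 6.42 ± 0.05. Of 36 blood factors 17 were called lower and 0 higher (median -3.38). Myb of progenitor cells was 6.72 ± 0.09 lower, Tal1 of the red cell lineage 6.21 ± 0.21, the B cell factor Spib 6.06 ± 0.12, Nfe2 of red cells and megakaryocytes 5.72 ± 0.20, and Ikzf1 of lymphocytes 5.51 ± 0.06, though the Ikzf1 probe set brightest in liver differed by -1.17 and was not called.

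Promoter sequences were read for short letter runs tied to such factors, as a description of the called genes. RefSeq (GRCm38.p6) gave a window from 250 bases before to 50 after the start for 14368 of the genes tested, 655 of them liver-high and 397 liver-low. With several starts, the most upstream one was used. The run GTTAATNAT, read by HNF1, stood on either strand in 4.58% of liver-high windows, 0.252% of liver-low windows and 0.626% of all windows. CAAAGTCCA, read by HNF4, stood in 2.14% of liver-high, 0.504% of liver-low and 0.47% of all windows, and its inner run AAAGTCC in 10.1%, 7.3% and 4.31%. GAGGAAGT, an ETS run of the kind PU.1 reads, stood in 1.37% of liver-high, 7.81% of liver-low and 2.88% of all windows, and AGGAAGT within it in 5.8%, 19.4% and 9.12%. TTTGGCGC, read by E2F, stood in 0.611%, 3.02% and 0.856% in the same order. AGATAA, read by GATA factors, stood in 12.5%, 9.32% and 8.1%, TATAAA in 15%, 10.8% and 9.86%, CCAAT in 41.8%, 40.8% and 38.4%, TTTGAA, the cell cycle run CHR, in 14.5%, 20.2% and 13.4%, and TTGCGCAA, read by C/EBP, in 0.305%, 0.252% and 0.237%. These runs were chosen with the results known, and a match does not show that a factor binds.

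The 250 bases before the start are shown for 5 genes described here, 5′ to 3′ on the gene's strand, with the matched run (or its reverse complement) in capitals. Fga (chr3:83025903-83026152, plus strand) and Alb (chr5:90460620-90460869, plus strand) carry the HNF1 run 46 and 32 bases before the start. Cyp3a11 (chr5:145879855-145880104, minus strand) carries the HNF4 run 109 bases before it. S100a8 (chr3:90668821-90669070, plus strand) carries the ETS run 172 bases before the start, and Mcm5 (chr8:75109259-75109508, plus strand) the E2F run 149 bases before it. Distances are to the first base of the run.
Fga: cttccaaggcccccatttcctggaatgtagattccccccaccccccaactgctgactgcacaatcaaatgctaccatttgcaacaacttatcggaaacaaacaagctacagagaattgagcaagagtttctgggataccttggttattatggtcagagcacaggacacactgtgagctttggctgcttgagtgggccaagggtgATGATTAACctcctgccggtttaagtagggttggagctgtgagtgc
Alb: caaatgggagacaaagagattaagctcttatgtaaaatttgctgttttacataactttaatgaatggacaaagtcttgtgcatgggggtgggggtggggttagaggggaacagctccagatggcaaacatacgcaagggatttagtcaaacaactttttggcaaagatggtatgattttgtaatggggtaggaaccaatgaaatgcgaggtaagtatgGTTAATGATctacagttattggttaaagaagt
Cyp3a11: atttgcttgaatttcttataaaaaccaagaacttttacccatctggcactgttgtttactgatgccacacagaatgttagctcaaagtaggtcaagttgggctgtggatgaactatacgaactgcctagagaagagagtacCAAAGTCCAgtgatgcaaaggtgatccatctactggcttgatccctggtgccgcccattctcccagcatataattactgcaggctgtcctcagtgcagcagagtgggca
S100a8: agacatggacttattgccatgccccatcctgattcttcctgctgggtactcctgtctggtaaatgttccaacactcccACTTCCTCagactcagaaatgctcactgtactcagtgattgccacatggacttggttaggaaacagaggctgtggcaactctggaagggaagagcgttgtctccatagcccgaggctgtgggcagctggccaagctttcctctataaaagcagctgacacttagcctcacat
Mcm5: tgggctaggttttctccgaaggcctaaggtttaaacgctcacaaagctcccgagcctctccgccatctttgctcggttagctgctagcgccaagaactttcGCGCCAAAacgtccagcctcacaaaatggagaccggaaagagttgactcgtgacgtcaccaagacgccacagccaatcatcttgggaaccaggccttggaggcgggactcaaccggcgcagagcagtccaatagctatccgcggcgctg

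Among the genes lower in liver, markers shared by white cells were low almost throughout. Of 26 pan-leukocyte genes 25 were called lower (median -5.02, with 2.8% of all genes called lower). Ptprc, the gene of the leukocyte surface phosphatase CD45, was at 0.10, 0.36 and 1.00 in livers, against 5.84, 5.93 and 6.01 in marrows and 5.95, 6.24 and 6.39 in spleens, a difference of -5.69 ± 0.09. The livers still lay near the middle of their own arrays for this gene, at the 54.6th percentile. Coro1a, an actin-binding protein of blood cells, was 7.29 ± 0.09 lower, Cytip 6.26 ± 0.10 and the integrin activator gene Fermt3 6.08 ± 0.08.

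Granulocyte genes were lower against marrow by more than against spleen. S100a8, a subunit of the neutrophil protein calprotectin (NCBI Gene 20201, chromosome 3, 90669071 to 90670034), was at -2.0, -1.59 and -0.16 in livers, against 7.69, 7.74 and 7.82 in marrows and 5.41, 6.28 and 6.73 in spleens. That is 9.12 below marrow and 7.46 below spleen. Of 22 mature neutrophil genes 12 were called lower (median -4.48), with Ngp at -7.89 ± 0.18, Chil3 at -7.69 ± 0.15 and the antimicrobial peptide gene Camp at -7.57 ± 0.17. Of 8 early granule genes 1 was called lower, the myeloperoxidase gene Mpo, by 9.01 against marrow and 4.59 against spleen, while 4 of the 8 were called on the uncentred, percentile and ribosomal and proteasome scales. Elane, neutrophil elastase, was 7.42 below marrow but 2.57 below spleen, short of the 8-fold minimum there.

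Haptoglobin belongs to both worlds. Hp, whose product binds free haemoglobin, is made by hepatocytes and stored in granulocytes (NCBI Gene 15439, chromosome 8, 109575128 to 109579172). It was at 8.01, 8.43 and 8.59 in livers, against 6.21, 6.47 and 6.54 in marrows and 1.38, 2.66 and 3.72 in spleens. Livers were above every marrow, by 1.96 on average, and above every spleen, by 5.87, so the gene was not called against both.

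Red cell genes were among the lowest in liver. Of 29 erythroid genes 15 were called lower (median -3.30). Hemgn, a nuclear protein of red cell precursors, was at -3.20, -2.99 and -2.41 in livers, against 5.32, 5.76 and 5.93 in marrows and 3.43, 5.28 and 6.02 in spleens, a difference of -8.43 ± 0.23. Slc4a1, the anion exchanger of the red cell membrane, was 8.22 ± 0.17 lower, Rhag of the Rh complex 7.21 ± 0.22 and the blood group gene Ermap 6.56 ± 0.21. Hbb-b2, a beta globin gene, was 6.89 ± 0.16 lower, but its probe sets disagree: the one brightest in liver was 2.24 higher there. Alas2, the red cell enzyme that starts haem synthesis, was at the 93.3rd percentile in liver, against the 99.4th in marrow and in spleen, and was not called (-1.66 ± 0.11).

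B cell genes were lower by more against spleen than against marrow. Ms4a1, the gene of the B cell surface protein CD20, was at -2.38, -2.18 and -1.88 in livers, against 2.19, 2.65 and 3.30 in marrows and 4.66, 5.31 and 5.57 in spleens. It lay 4.96 below marrow and 7.49 below spleen. Of 28 B cell genes 14 were called lower (median -3.76), including the B cell coactivator Pou2af1 (-7.15 ± 0.12), the immunoglobulin joining chain Jchain (-6.76 ± 0.06) and the IgM receptor Fcmr (-6.16 ± 0.09). The kappa variable segment Igkv8-30 was 7.71 ± 0.10 lower and Cd24a, a surface protein of immature blood cells and the gene furthest below both tissues, 8.55 ± 0.11. Of 20 MHC class II and antigen presentation genes 1 was called lower, H2-Ob. H2-Eb1 was 5.50 below spleen but 2.58 below marrow, and Cd74, the invariant chain, 4.41 and 2.76. On the uncentred scale 9 of the 20 were called lower.

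The count of T cell, natural killer and macrophage genes called depended on the scale. Of 27 T cell genes 3 were lower (median -1.90), namely Ms4a4b (-5.38 ± 0.11, but -3.44 and not called with the mean of its probe sets), the interleukin-7 receptor gene Il7r (-4.94 ± 0.12) and Cd3d (-3.94 ± 0.12). Of 18 natural killer and cytotoxic genes 2 were lower (median -1.93), Nkg7 by 4.71 ± 0.09 and Klrd1 by 4.46 ± 0.07. Of 21 monocyte and macrophage genes 3 were lower (median -1.99), including Vcam1 (-5.57 ± 0.12) and Ccr2 (-5.42 ± 0.15). With the probe set brightest in liver these were -0.95 and -0.96 and lost their calls. On the uncentred scale 5 T cell, 7 natural killer and 8 monocyte and macrophage genes were called lower. Tyrobp, a signalling adaptor of macrophages, was 4.39 below marrow and 2.69 below spleen, and at the 75th percentile in liver. Of 20 megakaryocyte and platelet genes 8 were lower (median -3.42). Ppbp, a platelet chemokine, was at -2.63, -2.09 and -1.97 in livers, against 6.33, 6.87 and 7.05 in marrows and 4.30, 5.13 and 5.47 in spleens. Rgs18 and Pf4 were 6.34 ± 0.09 and 5.77 ± 0.11 lower.

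Cell division genes were low in liver. Of 31 mitosis genes 22 were called lower and 0 higher (median -4.29), and of 30 DNA replication genes 12 lower and 0 higher (20 lower uncentred; median -2.94). Mki67, the proliferation marker (NCBI Gene 17345, chromosome 7, 135689784 to 135716450), was at -2.52, -2.33 and -1.47 in livers, against 5.96, 6.04 and 6.30 in marrows and 3.92, 5.43 and 6.09 in spleens, a difference of -7.99 ± 0.21. Livers lay at its 16.9th percentile on average, against the 99.4th in marrow. Ube2c was 6.42 ± 0.27 lower, Cdc20 6.22 ± 0.26 (but -0.02 by its probe set brightest in liver), and the replication genes Cdc6 6.15 ± 0.23, Rrm2 5.80 ± 0.22 and Mcm5 5.35 ± 0.17. Top2a was 6.68 ± 0.18 lower, though its probe set brightest in liver was 0.54 higher. Mcm10, a replication initiation factor, was 3.11 ± 0.17 higher by the probe set used, not enough against marrow (2.73) to be called. Another of its probe sets was 0.72 lower than marrow and 0.33 higher than spleen, and the remaining one was 1.17 and 1.59 higher. Hmgb2, a chromatin protein of dividing cells that is in no list, was 7.18 ± 0.12 lower.

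**Figure D3:**
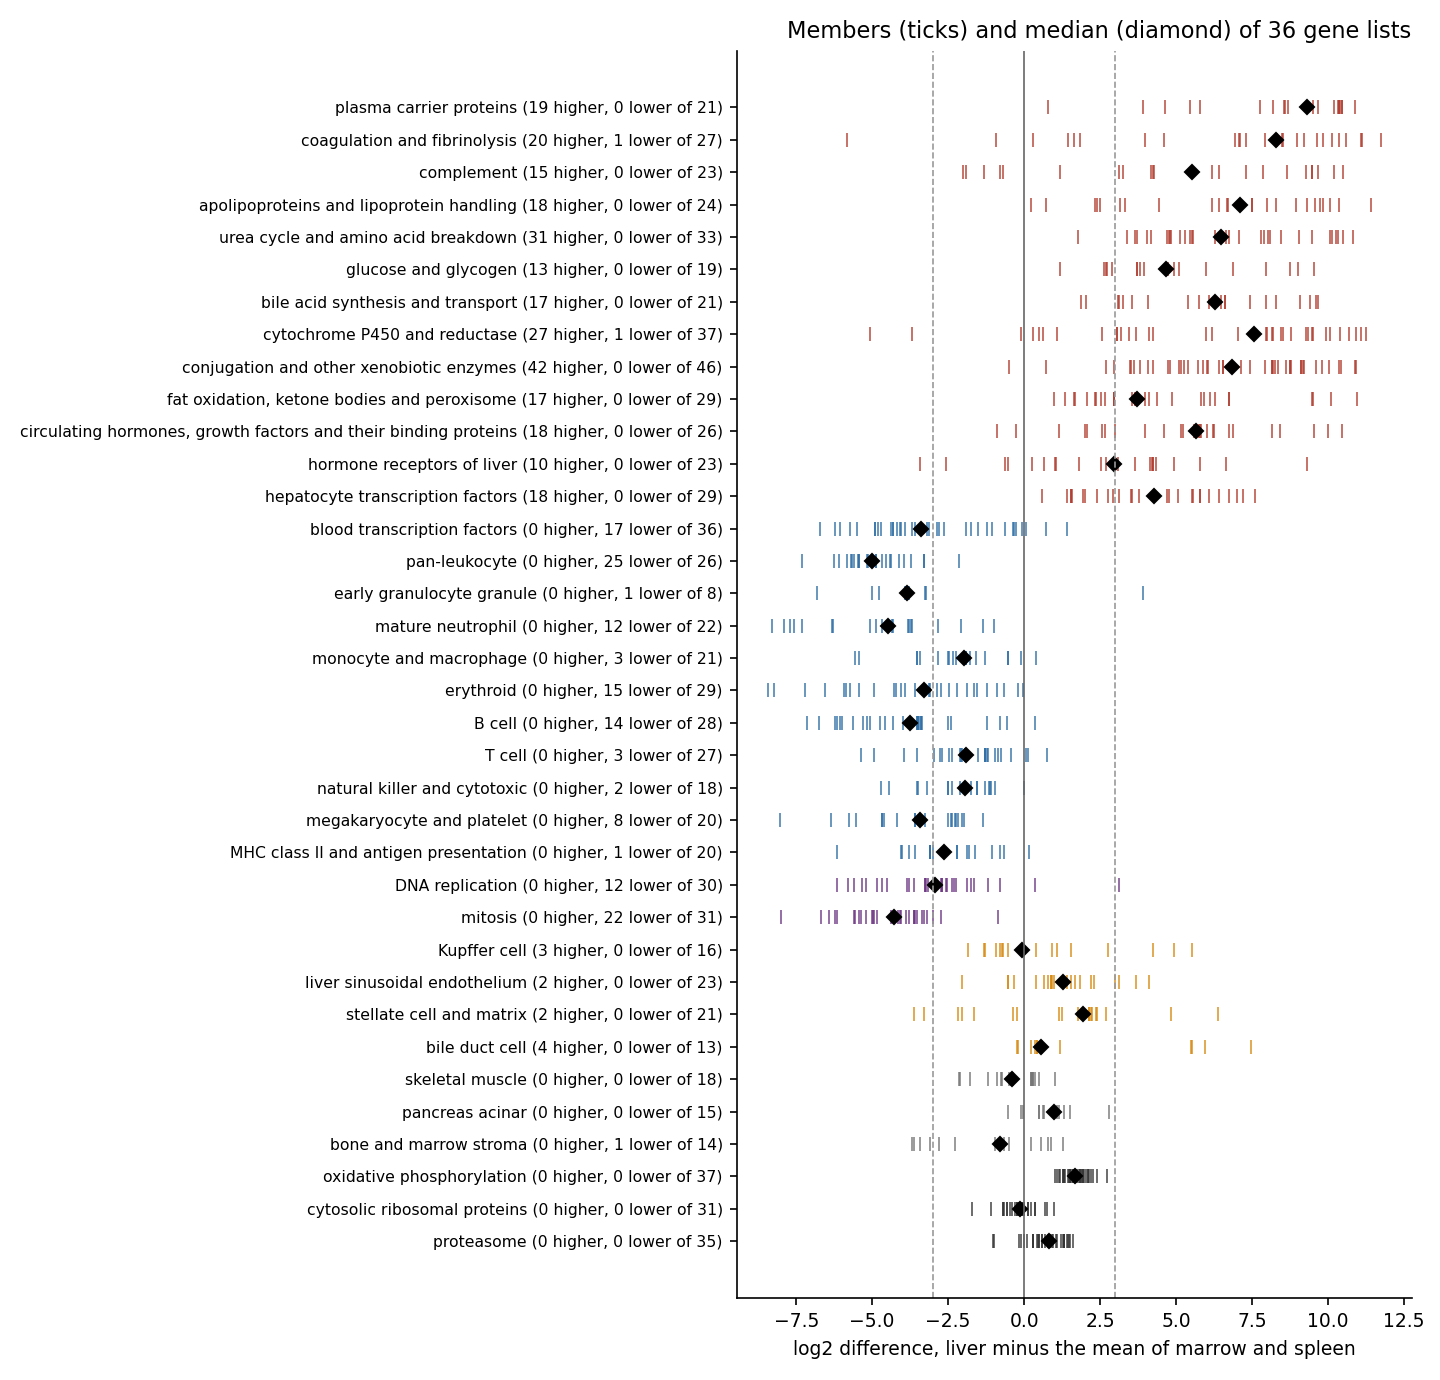
Log2 difference of each measured list member, liver minus the mean of marrow and spleen (ticks, coloured by kind of list), with the list median (diamond) and the counts called. Dashed lines mark 3 log2 units. The 13 hepatocyte lists lie to the right, the blood and cell division lists to the left, and oxidative phosphorylation, ribosomal protein and proteasome genes between the lines.

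Genes known to carry out the same step in different tissues were set side by side. Of 20 forms known from liver 13 were called higher and 0 lower (median 6.75), and of 33 other forms 2 were higher and 5 lower (median -1.27). For glucose transport, Slc2a2, the high-capacity transporter of hepatocytes (NCBI Gene 20526, chromosome 3, 28697903 to 28728361), was at 5.48, 6.13 and 6.47 in livers, against -3.70, -3.56 and -3.27 in marrows and -3.74, -3.46 and -3.36 in spleens. Slc2a3, a high-affinity transporter, was 6.16 ± 0.09 lower (with the mean of its probe sets -4.01, not called), and the widespread Slc2a1 was not called (-0.94 ± 0.14). In glycolysis, the hexokinase Hk1 was 3.76 ± 0.10 lower and the pyruvate kinase Pkm 4.34 ± 0.07 lower, while the liver pyruvate kinase Pklr was 2.91 ± 0.20 above both together and not called.

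Called forms lay on both sides for glucose transport and for carbonic anhydrase. For arginase, phosphoenolpyruvate carboxykinase, glycogen synthase and the transferrin receptors the liver form was called and the other form was not. Arg1 was 10.83 ± 0.07 higher, and Arg2, the mitochondrial arginase, had a difference of -2.61 ± 0.23. Pck1 was 8.74 ± 0.11 higher, and the mitochondrial form Pck2 had a difference of -2.87 ± 0.12 and was called lower on the other 4 scales. One probe set of Pck1 lay only 1.04 above marrow and 1.31 above spleen, while its others passed 8-fold. Gys2 was 6.89 ± 0.15 higher, and Gys1 had a difference of -0.99 ± 0.10. For iron uptake, Tfr2, an iron sensor of hepatocytes, was 4.24 ± 0.17 higher (not called uncentred or on percentiles). Tfrc, the receptor that red cell precursors use, had a difference of -2.47 ± 0.21. Tfrc was called lower uncentred (-3.48) and after quantile normalization (-3.14). Among carbonic anhydrases Car3 was 6.62 ± 0.46 higher, while Car2 and Car1, the red cell forms, were 5.45 ± 0.16 and 3.30 ± 0.18 lower. Car1 lost its call without spleen 1-dose replicate 1 (-3.25), without spleen 5-dose replicate 2 (-3.19) and with the left-out spleens put back (-3.23), and Car3 lost its call on the percentile scale. Tdo2, the liver enzyme that opens the tryptophan ring, was 8.08 ± 0.08 higher. Among the forms set against the liver forms, Aldoc (3.68 ± 0.07) and Hmgcs1 of cholesterol synthesis (3.94 ± 0.13) were called higher. Uncentred both were not called (2.68 and 2.93), nor was Hmgcs1 on the quantile and percentile scales. Aldoc also lost its call on the ribosomal and proteasome scale (3.09) and with the mean of its probe sets (2.57).

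**Figure D4:**
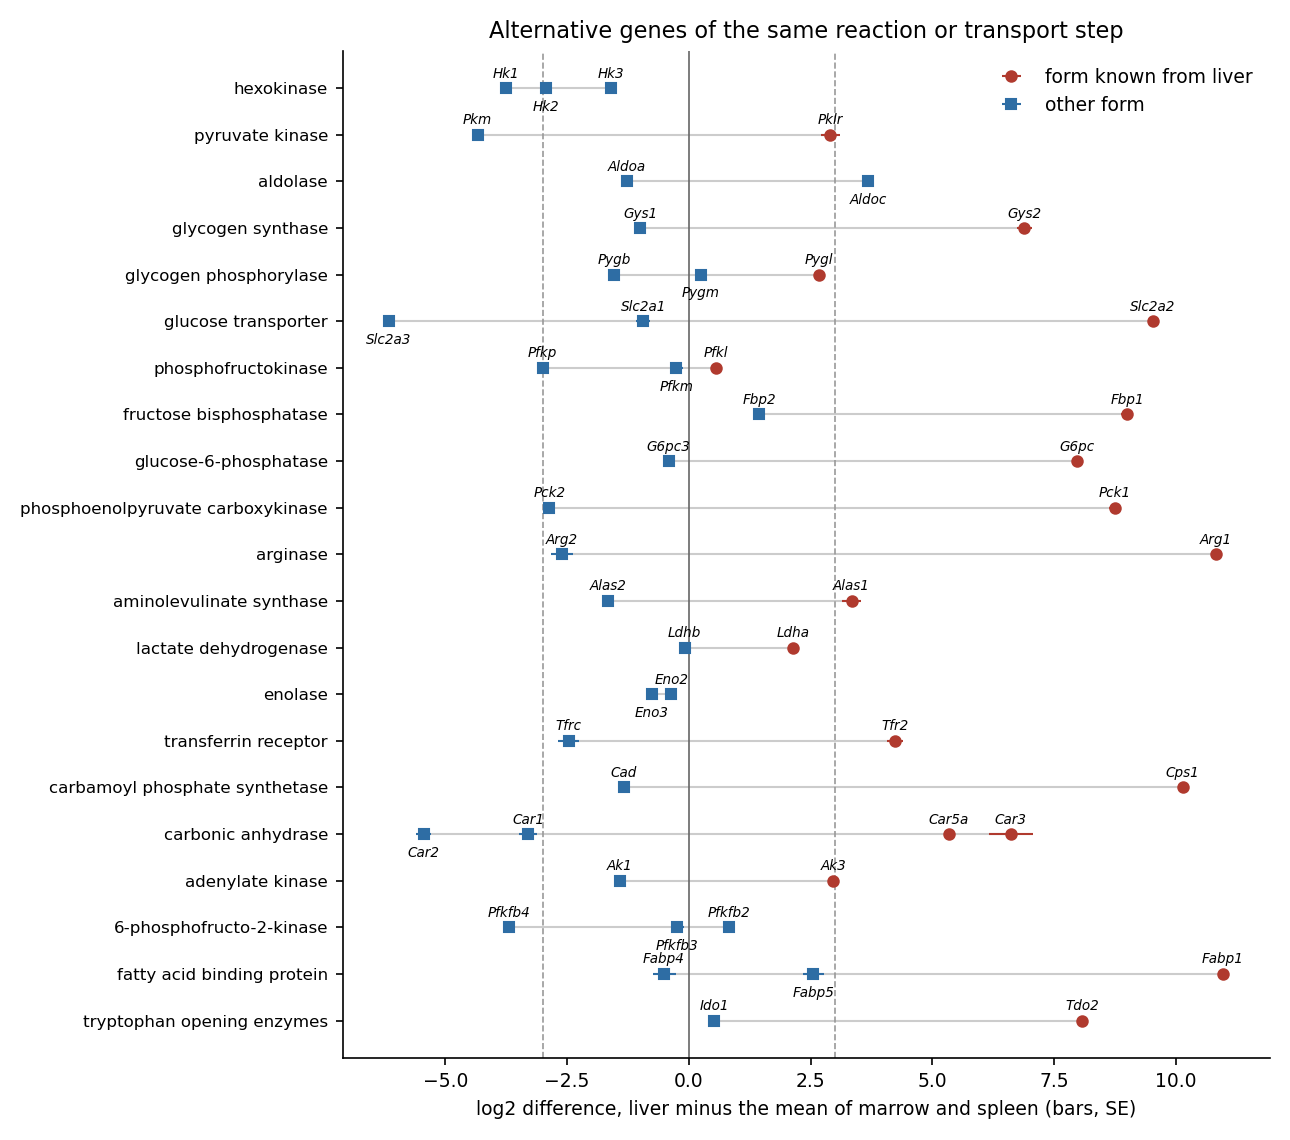
Log2 difference, liver minus the mean of marrow and spleen, with SE, for genes of the same reaction or transport step. Circles are forms known from liver, squares other forms, and dashed lines mark 3 log2 units. Slc2a2 and Slc2a3 are the widest pair, at 9.53 and -6.16.

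The minority cells of liver showed only in part. Of 16 Kupffer cell genes 3 were called higher (median -0.07), C6 (5.53 ± 0.12), Clec4f (4.95 ± 0.08) and Vsig4 (4.23 ± 0.11). Clec4f, a lectin of Kupffer cells, was at 3.29, 3.40 and 4.08 in livers, against -1.36, -1.29 and -0.99 in marrows and -1.85, -1.52 and -1.28 in spleens. Timd4, a receptor of resident macrophages that spleen also holds, was not called (-1.84 ± 0.15). Vsig4 lay 3.04 above marrow, just past the minimum. Its call was lost on 3 of the other 4 scales, with the source field, with the replicate block and with either other choice of probe sets over all genes. Vsig4 has only 1 probe set, so those choices moved its value through the array median alone. The call was also lost without liver 1-dose replicate 1, without marrow 1-dose replicate 1 and without marrow 5-dose replicate 2. Of 23 sinusoidal endothelium genes 2 were higher (median 1.28), Clec4g (4.11 ± 0.12) and Oit3 (3.67 ± 0.05). Uncentred, 0 of the 23 were called by limma and the 8-fold minimum and the median was 0.27. The mean of the Clec4g probe sets (2.22) was not called. Oit3 was also not called after quantile normalization (3.52) or on the ribosomal and proteasome scale (3.07). Of 21 stellate cell and matrix genes 2 were higher (median 1.94), the collectin genes Colec11 (6.38 ± 0.09) and Colec10 (4.84 ± 0.06). The collagen gene Col1a1 was 5.85 below marrow and 1.40 below spleen and not called. Of 13 bile duct genes 4 were higher (median 0.54, but -0.46 uncentred), among them the epithelial keratins Krt18 (7.48 ± 0.10) and Krt8 (5.96 ± 0.07) and the cadherin Cdh1 (5.51 ± 0.08), which hepatocytes also make. Krt19, the keratin that marks bile ducts, was at the 41.0th percentile and not called (1.18 ± 0.13).

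Few genes of neighbouring tissues were called. None of the 15 pancreas acinar genes (median 0.97, but -0.04 uncentred) and none of the 18 skeletal muscle genes (median -0.39) was called by limma and the 8-fold minimum. All 5 measured defining acinar markers ranked below the median gene of the liver arrays. Of the 15 acinar genes 11 lay above every marrow and spleen, as did 7224 of all 18193 genes. Uncentred, 5 of the 15 had a positive difference and 10 a negative one. Cela1, an elastase gene, was furthest above, by 2.80, with levels of 4.55 to 5.08 in livers. Of 14 bone and marrow stroma genes 1 was called, Kitl, the ligand of the receptor Kit, lower by 3.70 ± 0.13. It was not called with the mean of its probe sets (-2.16) or with the one brightest in liver (-0.39), and 2 genes of the list were called on each of the other 4 scales.

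Among the 7 livers the liver-high genes mostly varied little, with a median SD of 0.20 log2 units, and 8 of the 834 had an SD above 1. Those with the widest spread were acute-phase genes, whose products rise in plasma during inflammation. Saa3, a serum amyloid A gene, was at 5.95, 7.07, 4.19 and 1.66 in the 5-dose livers and at 6.64, 1.60 and 2.01 in the 1-dose livers, a range of 44.2-fold. The low livers still lay above every marrow and spleen, where the highest was 0.53. Orm2, an orosomucoid gene, was at 7.39, 5.56, 3.76 and 2.82 after 5 doses and at 6.80, 2.74 and 2.44 after 1 dose, a 30.9-fold range. Saa2 and Saa1 spanned 42.0-fold and 9.95-fold. In all 4 genes 1-dose replicate 1 and 5-dose replicates 1 and 2 were the 3 highest livers. Hp, another acute-phase gene, spanned 1.5-fold. S100a8 was highest in 1-dose replicate 1 (-0.16) and 5-dose replicate 2 (-0.78), while the other 5 livers ran from -2.0 to -1.59. Whether white cell content and these acute-phase levels are connected was not tested. Igfbp1, an insulin-repressed binding protein, ran from 1.11 over 2.82 to 4.47, and Thrsp, a lipogenic gene, from 3.51 over 5.49 to 6.24.

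Liver differed little between 5 and 1 vehicle doses. By limma 2 of 18193 genes passed (0.011%), with 985 at an unadjusted p under 0.05. Tbx3, a transcription factor of hepatocytes (NCBI Gene 21386, chromosome 5, 119670534 to 119684724), was at 2.16, 2.34, 1.75 and 2.01 after 5 doses, against 0.90, 0.80 and 0.93 after 1. The groups did not overlap, and the rise was 1.19 ± 0.12 (limma adjusted p = 3.67e-05). Cyp7a1, the rate-limiting enzyme of bile acid synthesis (NCBI Gene 13122, chromosome 4, 6265612 to 6275632), was at 4.30, 4.56, 3.48 and 4.23 after 5 doses, against 3.06, 3.22 and 2.92 after 1. Its rise was 1.08 ± 0.16 (limma adjusted p = 0.0122), and it missed the threshold on the percentile scale (adjusted p = 0.137) with the mean of its probe sets (0.0888), and without 1-dose replicate 1 (0.0848) or 3 (0.09). The labels do not say whether the 2 days were processed together, so dose number and processing cannot be told apart within liver. With the source field in place of the titles 358 genes passed, and in a limma fit of the liver arrays alone, with a spread from 7 arrays, 0 genes passed. The dose result thus rests on the choice of label and of arrays. Set against the change of marrow and spleen over the same days, 1 gene passed (0.0055%), again Tbx3, with a change in the liver difference of 1.33 ± 0.14 (limma adjusted p = 0.000204), and 710 genes had an unadjusted p under 0.05.

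**Figure D5:**
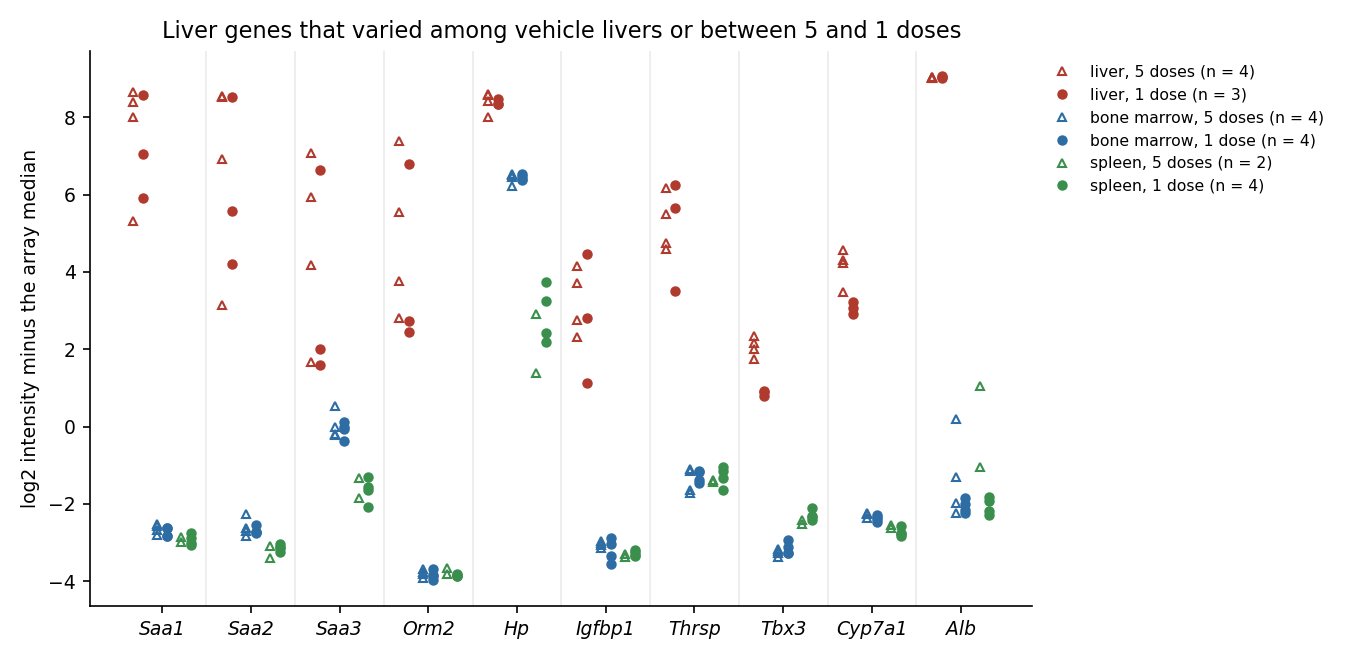
Level of 10 liver genes in each vehicle array, as log2 intensity minus the array median, for 5 doses (open triangles) and 1 dose (filled circles). Saa2, Saa3 and Orm2 spread over 4.95 to 5.47 units among livers, Alb over less than 0.1, and the 5-dose livers lie above the 1-dose livers for Tbx3 and Cyp7a1.

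The baclofen-treated mice gave a separate set of livers, marrows and spleens on which the same comparison was run, over 12 livers, 12 marrows and 11 spleens. A further spleen, 5-dose replicate 5, was left out, with a hepatocyte marker mean of 2.03 against -2.27 to -1.24 in the others. There 828 genes were called higher and 441 lower, 4.55% and 2.42% of those tested. Of the vehicle calls, 783 of the liver-high genes (93.88%) and 416 of the liver-low genes (81.57%) were called in the same direction, and these are 94.57% and 94.33% of the baclofen calls. None of the 1344 was called in the opposite direction.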

How the data were processed

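RNA from vehicle liver, bone marrow and spleen was hybridised to Affymetrix expression arrays. The deposited values are intensity on a linear scale, which the authors made by robust multi-array averaging (RMA), and limma is named too, per the submitters' processing notes; neither version is given in the sources used here. RMA corrects background and summarises probes, so dim values share a floor and folds of dim genes are compressed. An array holds no counts, and the number of arrays limits the precision.

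Of 45101 probe sets, 34945 have 1 gene symbol in the platform annotation, 932 several and 9160 none, and 64 are controls. Only those with 1 symbol were used. They stand for 18193 genes, 9010 of them with several probe sets, and the set with the highest mean of the 3 tissue means stood for its gene. Of the liver-high genes 334 have several probe sets, and in 162 of these all passed the 8-fold minimum. Of the liver-low genes 314 have several, and in 73 of these all passed. A call thus need not hold across a gene's probe sets, though in 0 called genes did any pass 8-fold the other way. Gene identifiers of 34741 probe sets were found in RefSeq GRCm38.p6, whose coordinates are given. Values were log2-transformed and centred on each array's median. limma 3.58.1 in R 4.3.3 was fitted to 6 groups of tissue and dose number, which share 1 spread per gene, and liver was set against the mean of marrow and spleen. Its SE is given with each difference, and p-values were adjusted by Benjamini and Hochberg over 18193 genes. The fit was tested on simulated data. Tables and figures used Python with pandas.

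The rule for named genes takes the 15 called genes furthest above and below both tissues (clone identifiers not named), from each list the 5 largest differences at most, members called against their list's direction, the isozymes and the leading genes between doses. Not all are named. Genes not called, the acute-phase genes and others outside the rule were added after their values were seen. The members, lists, motifs and tests were chosen with earlier results of these data known. Of the 974 list genes 107 have no value here. The 5 scalings, probe set choices, filters, thresholds, the left-out spleens, the source field, the replicate block and each array left out were tried as alternatives.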

Additional observations from a re-analysis of the deposited data

Results flagged for a closer look

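A sample far from the others of its group was found in 12 of 244 groups of 4 tested over list means and named genes, and chance gives about 1 in 20. In liver, 5-dose replicate 2 was high for the mean of mitosis genes, at -1.10 against -1.80 to -1.71 in the other 3 livers of its group, and for Mki67, at -1.47 against -2.46 to -2.33.

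In bone marrow, 5-dose replicate 1 was low for the B cell mean (2.00 against 2.37 to 2.39) and the T cell mean (-0.47 against -0.33 to -0.31). Among 1-dose marrows, replicate 4 had a plasma carrier mean of -1.49 against -1.41 in the others and Saa2 at -2.55 against -2.74 to -2.72. Replicate 2 had a bile acid list mean of -0.87 against -0.82 to -0.81, and replicate 1 a ribosomal protein mean of 5.61 against 5.54.

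In spleen, 1-dose replicate 3 was low for the megakaryocyte and platelet mean (1.38 against 1.94 to 2.01) and for Ppbp (4.76 against 5.45 to 5.47). Replicate 2 had a plasma carrier mean of -1.63 against -1.72 to -1.71, and replicate 1 a skeletal muscle mean of -1.54 against -1.69 to -1.67.

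The difference of liver from both tissues changed between 5 doses and 1 dose for Tbx3, by 1.33 log2 units in the test of that change. In the left-out vehicle spleens the hepatocyte marker mean was -0.26 in 5-dose replicate 1 and 2.08 in 5-dose replicate 3, against -2.16 to -1.05 in the 6 spleens used.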

How the results depend on the processing

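Without centring, 1027 genes were lower by 8-fold, and 3190 higher and 13658 lower by adjusted p alone. On percentile ranks 907 were lower. Centred on ribosomal protein and proteasome genes 810 were lower, and 5239 higher and 9835 lower by p alone. With probe sets kept apart 1272 were higher, 20089 and 11331 passed by p alone, and 8 and 2 passed in the dose tests. With a mean over probe sets 4 passed between doses. A brightness filter at the 40th percentile left 5329 higher by p alone, and 1 and 0 in the dose tests. A 4-fold minimum gave 1392 higher and 1026 lower, 2201 of them shared with the baclofen arrays, and a 16-fold minimum 229 lower and 704 shared. At an adjusted p under 0.01, 1 gene passed between doses. With the source field 358 and 43 passed in the dose tests, and in liver arrays alone 0. In each case not settled by fewer or more features, arrays or a threshold, the cause was not tested. With single arrays left out, 829 to 844 genes were higher and 494 to 530 lower. Between doses 2 to 7 genes passed in liver, the most without liver 5-dose replicate 4, and 1 to 4 for the change in the liver difference. Of the gene differences, 3 turned sign, all with the probe set brightest in liver: Hbb-b2 (2.24), Cyp4f18 (0.048) and Top2a (0.54).

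With the replicate block 830 genes were higher and 507 lower. Of 18 pairs of arrays with the same number, 6 had deviations correlated above 0.1 (median 0.08), against 5 of 54 pairs with different numbers (median -0.02). All same-number pairs of 5-dose arrays were positive (0.0759 to 0.2338), and all those with a 1-dose liver were negative (-0.0615 to -0.0086). Those of 1-dose marrow with spleen went both ways (-0.0923 to 0.1992). Deviations of the 2 used 5-dose spleens mirror each other, so their pairs are not independent. Since not every pair passed 0.1, the numbers were not taken to pair the samples, which leaves sharing between some of them possible. The block ended the call of Vsig4 (4.16) and of no other named gene. Without spleen 5-dose replicate 4, which has the highest hepatocyte marker mean of the spleens used, 838 were higher and 530 lower, and with the left-out spleens put back 831 and 490. Signal near the background floor limits folds of dim genes.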

Other observations

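The labels used here do not give the sex of the mice. Several genes that are known to differ between the sexes in mouse liver, chosen after their values were seen, were read in the 7 livers. Of genes known to be higher in males, Mup3 ranked at the 99.8th percentile of the liver arrays, Cyp2d9 at the 99.4th, Cyp4a12a and Hsd3b5 both at the 98.7th, Cyp7b1 at the 99.6th, Elovl3 at the 98.2nd and Slco1a1 at the 97.6th. Of genes known to be higher in females, Cyp2b9 ranked at the 11.4th percentile, Cyp2b13 at the 19.99th, Cyp3a44 at the 24.3rd, Acot3 at the 44.1st and Cux2 at the 69.6th.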
